A study of Mus musculus with 24 samples.

Results

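The genes described here are 36 imprinted protein-coding genes of the mouse, out of 21887 protein-coding genes in the gene table, and they lie in 16 imprinted domains. They were chosen by name as imprinted genes and with measured values in view, namely the presence and covered length of H3K9ac peaks at their gene ends. Those values are therefore given as descriptions, and where a fit over all regions also covers these genes, its calls for them are printed as descriptions too. H3K9ac is acetylation of lysine 9 on histone H3, typical of promoters in use, and its peaks came from sequencing of immunoprecipitated chromatin (ChIP-seq) of embryoid bodies at day 5. These are aggregates of differentiating embryonic stem (ES) cells. Gcn5, the product of Kat2a, is a histone acetyltransferase for which this residue is a known substrate.

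All cells were of the C57BL/6 strain. Clones 4_1 and 6_1 were Gcn5 fx/fx, carrying the floxed allele on both chromosomes, and clones 4_C2 and 6_C4 were Gcn5-/-, called null here. Each clone is 1 ES cell line and gave 2 H3K9ac replicates, so 4 fx/fx libraries were set against 4 null libraries. Isolate pair 4 consists of 4_1 with 4_C2, and isolate pair 6 of 6_1 with 6_C4. The labels do not say which part of Kat2a was deleted. The 16 samples of total H3 and of input DNA were not used here.

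Imprinted genes are expressed mainly from the copy inherited from one parent, according to DNA methylation laid down in the egg or sperm and kept through early development. A methylated copy of a control region is usually silent and lacks histone acetylation, while the other copy can carry active marks. Many imprinted genes act on growth, the placenta or the brain, and in pluripotent and early differentiating cells a number of them are little used or are expressed from both copies. The deposited peak lists do not separate the maternal from the paternal copy, so each peak below may lie on either copy or on both.

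Peak lists were given per library as chromosome, start and end, with no height or score. The lists held 12041 to 20809 peaks covering 21.8 to 44.3 Mb, and replicate 2 of 4_C2 had the fewest peaks and the least covered length. The depth of the libraries is unknown, and no interval for counting error is given. A gene was said to have an end peak where a peak overlapped a window of 1000 bp either side of the lower or higher coordinate of its span. Its covered length was the full length of all peaks touching either window. As a check of the tissue label, the 10 epiblast markers had end peaks for 9 to 10 genes per fx/fx library and 8 to 10 per null library. For the 8 primitive streak and mesoderm markers the numbers were 8 and 4 in 4_1 and 3 and 1 in 4_C2. In the other clones they were 7 and 8 in 6_1 and 7 and 6 in 6_C4. The 6 neuroectoderm markers had 4 and 4 in 4_1, 3 and 2 in 4_C2, 5 and 5 in 6_1, and 4 and 5 in 6_C4. The 8 endoderm markers had 4 and 0 in 4_1, 1 and 0 in 4_C2, and 4 in every library of pair 6. The 9 fibroblast markers had 2 and 1 in 4_1, 0 and 0 in 4_C2, 3 and 3 in 6_1, and 3 and 2 in 6_C4.

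The promoters that carry the main patterns are shown first. Each window runs from 250 bases before to 50 bases after a start site, on mm10, read 5′ to 3′ on the gene's strand from the RefSeq promoter table. Capitals mark the hexamer TGCCGC or its reverse complement GCGGCA, the letters bound in methylated form by Zfp57, a zinc finger protein that maintains imprints. The upstream start of Grb10 (chr11:12037371-12037670, minus strand) is shown because its peak separated the genotypes, and the downstream start (chr11:12027922-12028221, minus strand) because it had none. Phlda2 (chr7:143502475-143502774, minus strand) had a peak in 4 fx/fx libraries and 1 null library. Mest (chr6:30737800-30738099, plus strand) and Snrpn (chr7:60005150-60005449, minus strand) had peaks at these internal starts that the gene ends missed.
Grb10 upstream: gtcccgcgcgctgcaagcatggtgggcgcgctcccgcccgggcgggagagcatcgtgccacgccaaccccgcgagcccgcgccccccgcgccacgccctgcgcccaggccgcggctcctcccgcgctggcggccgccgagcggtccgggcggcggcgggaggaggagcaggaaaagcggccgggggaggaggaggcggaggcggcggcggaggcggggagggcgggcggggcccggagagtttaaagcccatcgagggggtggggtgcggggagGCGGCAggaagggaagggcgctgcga
Grb10 downstream: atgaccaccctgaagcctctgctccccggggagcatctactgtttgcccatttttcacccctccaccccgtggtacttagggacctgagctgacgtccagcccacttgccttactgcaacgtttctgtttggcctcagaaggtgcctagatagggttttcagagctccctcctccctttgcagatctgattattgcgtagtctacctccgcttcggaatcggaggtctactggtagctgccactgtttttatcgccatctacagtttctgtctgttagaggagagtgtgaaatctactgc
Phlda2: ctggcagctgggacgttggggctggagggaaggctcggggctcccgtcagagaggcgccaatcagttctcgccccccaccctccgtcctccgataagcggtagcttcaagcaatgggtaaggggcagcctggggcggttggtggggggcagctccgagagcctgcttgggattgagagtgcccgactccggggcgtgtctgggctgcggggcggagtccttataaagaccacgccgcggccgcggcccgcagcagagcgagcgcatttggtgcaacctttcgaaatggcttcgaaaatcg
Mest internal: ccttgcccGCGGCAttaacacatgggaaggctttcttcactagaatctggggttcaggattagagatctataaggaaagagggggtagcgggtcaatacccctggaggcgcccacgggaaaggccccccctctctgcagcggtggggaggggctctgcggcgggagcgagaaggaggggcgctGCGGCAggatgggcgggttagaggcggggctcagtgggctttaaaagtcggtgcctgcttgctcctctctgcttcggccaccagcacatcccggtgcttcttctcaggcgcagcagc
Snrpn internal: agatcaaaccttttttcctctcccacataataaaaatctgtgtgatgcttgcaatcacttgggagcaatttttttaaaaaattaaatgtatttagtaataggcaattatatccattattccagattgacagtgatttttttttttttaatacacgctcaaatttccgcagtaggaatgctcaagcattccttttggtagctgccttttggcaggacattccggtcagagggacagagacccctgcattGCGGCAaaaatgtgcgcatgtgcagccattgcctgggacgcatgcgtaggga

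Of the 36 genes, 28 had an end peak in at least 1 library, 14 had one in all 8 and 14 had one in 1 to 7. Among all protein-coding genes these shares were 62.2%, 45.3% and 16.9%. The 8 genes without an end peak in any library were Ddc, Commd1, Igf2, Slc22a18, Asb4, Snrpn, Rtl1 and Dcn. Of 16 genes known to be expressed from the maternal copy, 7 had an end peak in all libraries, 5 in some and 4 in none. The 19 paternally expressed genes divided into 7, 8 and 4, and Gnas, which makes transcripts from both copies, had one in some libraries. Per library, 25, 20, 27 and 24 genes had an end peak in 4_1 replicates 1 and 2 and 6_1 replicates 1 and 2. In 4_C2 replicates 1 and 2 and 6_C4 replicates 1 and 2 the numbers were 25, 16, 21 and 22, so the lowest value belonged to the list with the fewest peaks. Of the 14 genes with an end peak in 1 to 7 libraries, 12 lacked it in replicate 2 of 4_C2, and 3 lacked it there alone. The part of list length in these counts was not tested.

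Grb10 was the only one of the 28 genes with an end peak in all 4 fx/fx libraries and in no null library, a pattern seen in 10 of 13621 genes with an end peak anywhere (0.0734%). Without replicate 1 of 6_C4 the pattern was seen in 38 genes. No imprinted gene had the opposite pattern, which had no gene in the table either (0%). None was found in all libraries of pair 6 and none of pair 4, where 137 genes were (1.01%), or in all of pair 4 and none of pair 6, where 5 genes were (0.0367%). With lists of equal length, each cut to its 12041 widest peaks, these were 42 and 79 genes, so the balance between the pairs turned round. That cut kept peaks down to 307 to 1312 bp in the pair 4 lists, but only down to 1397 to 1686 bp in the pair 6 lists. The part of this difference in the turn was not tested. The mean covered length was lower in null for 20 of the 28 genes, against 82.3% of all genes with an end peak. Every null library lay below every fx/fx library for Grb10 alone (2.09% of genes), and every null library lay above for none (0.044%). Since the genes were chosen with these values in view, nothing is read from their counts.

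**Figure D1:**
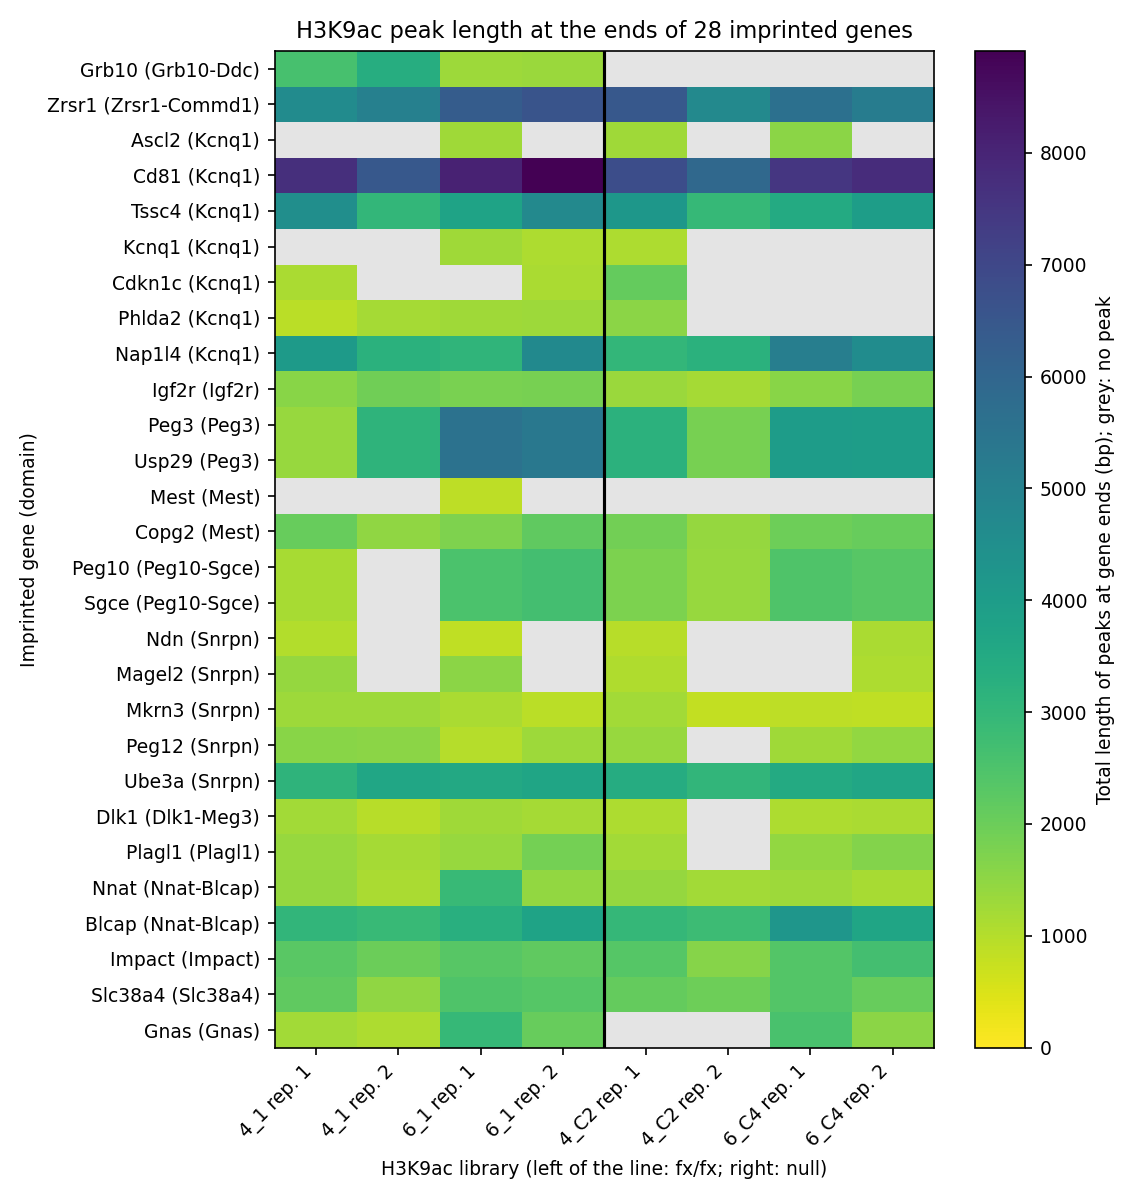
Total length in bp of the peaks at the gene ends (colour) of the 28 imprinted genes with an end peak, in rows with their domain, for the 8 libraries in columns, fx/fx left of the line and null right of it. Grey cells have no peak. Grb10 is coloured in the 4 fx/fx columns and grey in the 4 null columns, and 12 of the 14 genes with partial patterns are grey in replicate 2 of 4_C2.

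Grb10 encodes an adaptor protein that binds the insulin and IGF1 receptors and restrains their signalling and fetal growth. It is expressed from the maternal copy in most tissues, and from the paternal copy, by promoters further inside the gene, in neurons. It spans 11930499 to 12037428 on chromosome 11 and is read from the higher coordinate. At the upstream start site, 12037420, the peak measured 2583 and 3346 bp in replicates 1 and 2 of 4_1 and 1300 and 1351 bp in those of 6_1, and 0 bp in all 4 null libraries. The genotypes did not overlap, and within fx/fx both 4_1 libraries were wider than both 6_1 libraries. The mean in fx/fx was 2145 ± 996 bp (SD, n = 4).

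The Grb10 peaks ran from 12035939 to 12038521 and from 12035965 to 12039310 in 4_1, and from 12036338 to 12037637 and from 12036978 to 12038328 in 6_1. All 4 covered the upstream start site and reached into the gene. In the null libraries the peak nearest to that start was 226688 and 214086 bp away in 4_C2 and 204322 and 213797 bp away in 6_C4. The downstream start listed by RefSeq, 12027971, had no peak within 1000 bp in any library, and whether it is one of the neuronal promoters was not tested. When each list was cut to its 12041 widest peaks, Grb10 no longer separated the genotypes. The 6_1 peaks of Grb10 were narrower than the narrowest peaks kept in those lists, 1632 and 1686 bp.

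**Figure D2:**
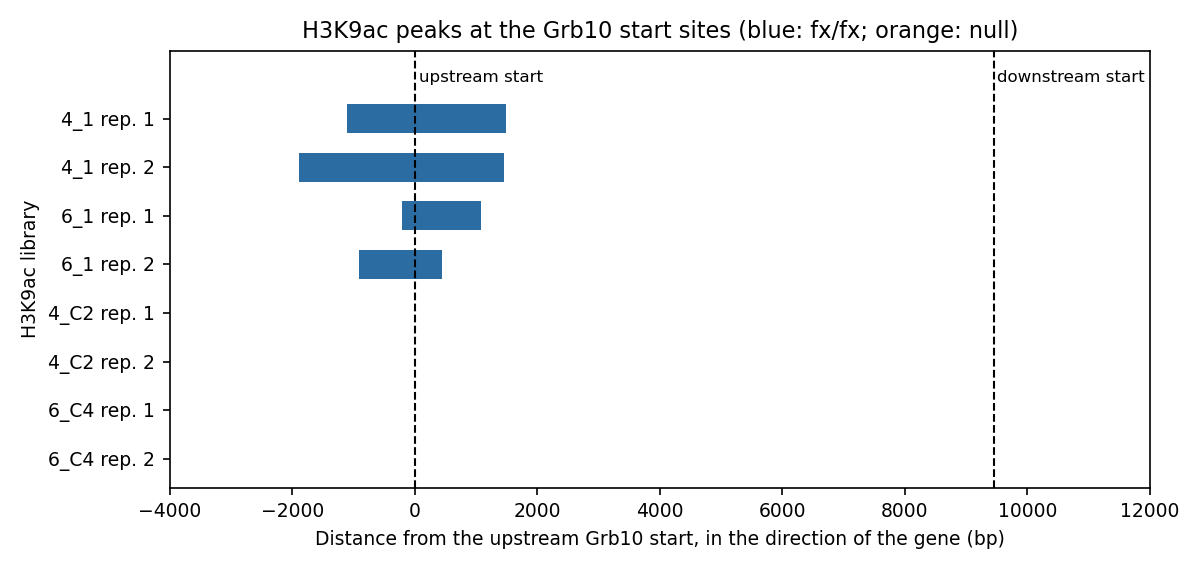
H3K9ac peaks (bars) around the Grb10 start sites in the 8 libraries, blue for fx/fx and orange for null, by distance in bp from the upstream start in the direction of the gene. The 4 fx/fx libraries have a peak over the upstream start, from 1300 to 3346 bp wide, the null libraries have none, and no library has a peak at the downstream start.

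Ddc, the neighbour of Grb10, encodes the decarboxylase that makes dopamine and serotonin and is imprinted in the heart. It had no end peak and no peak at either start site. A region inside the gene, 11820839 to 11823722, was covered in 4 fx/fx libraries over 1994 ± 614 bp and in 3 of 4 null libraries over 1472 ± 1102 bp (SD, n = 4). Its genotype values overlapped. Over the whole Grb10 domain with the flanking gene Cobl, peaks covered 6652, 6682, 6092 and 9737 bp in the fx/fx libraries and 1956, 3108, 5883 and 3896 bp in the null libraries. These sums did not overlap between genotypes, but they hold the Grb10 peaks, which were among the values in view when the genes were chosen. Only the Grb10 peak separated the genotypes there by itself. The Cobl end peak measured 1787 to 2152 bp in fx/fx and 1803 to 2006 bp in null, so its ranges overlapped, as those of the region inside Ddc did.

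The Kcnq1 domain of chromosome 7 holds growth inhibitors and placental genes on the maternal copy, which the long noncoding RNA Kcnq1ot1 silences on the paternal copy. Phlda2, which encodes a protein that limits placental growth, had peaks of 915, 1217, 1278 and 1294 bp in the 4 fx/fx libraries. It had 1558 bp in replicate 1 of 4_C2 and 0 bp in the other null libraries. That one null library had the widest peak of all, so the genotypes overlapped, and without it Phlda2 was seen in all fx/fx and no null library. Cdkn1c, a cyclin-dependent kinase inhibitor, had 1146 bp in replicate 1 of 4_1, 1132 bp in replicate 2 of 6_1, 2097 bp in replicate 1 of 4_C2 and 0 bp elsewhere. Its libraries with a peak came from both genotypes. Ascl2, a transcription factor of trophoblast, had 1265 bp in replicate 1 of 6_1, 1258 bp in replicate 1 of 4_C2, 1534 bp in replicate 1 of 6_C4 and 0 bp elsewhere. It was seen in replicates numbered 1 only.

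Kcnq1, a potassium channel subunit, had a peak at its lower end of 1254 and 1113 bp in 6_1 and of 1086 bp in replicate 1 of 4_C2, and 0 bp in the other 5 libraries. Inside Kcnq1, the start of Kcnq1ot1 was covered in all 8 libraries. Its peaks measured 3259, 2264, 3738 and 3749 bp in fx/fx and 3659, 3784, 3640 and 3983 bp in null. The ranges overlapped, and the centred width difference, null minus fx/fx, was 0.37 ± 0.14 on the log2 scale (SE; adjusted p = 0.714, limma over 10171 regions). Thus the noncoding RNA's start had a peak in libraries where Cdkn1c, Phlda2, Ascl2 and the Kcnq1 end had none.

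At the edges of this domain 3 genes had end peaks in all 8 libraries. Cd81, a tetraspanin, and Tssc4, a small nuclear ribonucleoprotein assembly factor, share a peak. For Tssc4 the covered length was 4496, 3023, 3747 and 4701 bp in fx/fx and 4190, 2947, 3460 and 3945 bp in null. Cd81 covered 6463 to 8912 bp in fx/fx and 5887 to 7794 bp in null. Nap1l4, a histone chaperone, covered 4068, 3236, 3094 and 4666 bp in fx/fx and 3010, 3230, 5089 and 4566 bp in null. For all 3 genes the genotype ranges overlapped. Slc22a18, a transporter, had no end peak, and its nearest peak lay 2143 bp from an end. The 9 trophoblast markers had end peaks for 1, 1, 4 and 2 genes in the fx/fx libraries, over 1045 to 8407 bp in sum. In the null libraries they had them for 1, 1, 2 and 2 genes, over 1008 to 2345 bp. The highest number and sum came from replicate 1 of 6_1, the list with the most peaks. Elf5, Prl3d1, Tpbpa, Plac1 and Gcm1 had none in any library, and the part of such cells in the values of the placental genes was not tested.

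The receptor and ligand of the IGF axis differed in where their peaks lay. Igf2r, the receptor that clears IGF2 and is maternally expressed, had end peaks of 1588, 1936, 1776 and 1816 bp in fx/fx and 1328, 1196, 1574 and 1834 bp in null. The ranges overlapped. The start of Airn, the noncoding RNA that silences the paternal Igf2r copy, lies inside Igf2r and was covered over 1706, 1484, 1805 and 2039 bp in fx/fx and 2196, 2064, 2018 and 1911 bp in null. Its centred log2 width difference was 0.36 ± 0.10 (SE; adjusted p = 0.714, limma), so both noncoding starts had positive estimates that did not pass the threshold.

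Igf2, the paternally expressed fetal growth factor, had no end peak, and its start at 142666816 had none. A merged region within 1000 bp of its 3 other start sites, chromosome 7, 142657940 to 142661527, held a peak in all 8 libraries. It was covered over 2425 ± 942 bp in the fx/fx and 2424 ± 1086 bp in the null libraries (SD, n = 4). No single start had a peak in every library. The starts at 142661271 and 142658804 had one in 7 libraries each, and the start at 142657496 in 5. H19, the maternal noncoding RNA next to Igf2, had no end peak in any library.

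Among the Prader-Willi and Angelman genes of chromosome 7, Snrpn, a spliceosome protein gene and the centre of the imprint, had no end peak. Its internal start at 60005199 was covered in all 8 libraries, over 1767, 1863, 1958 and 2452 bp in fx/fx and 2562, 1954, 2331 and 2351 bp in null, and the ranges overlapped. Further regions inside Snrpn, 60242959 to 60245211 and 60390510 to 60392118, had peaks in 8 and in 7 libraries. Ube3a, the ubiquitin ligase that is maternally expressed in neurons, covered 3123, 3638, 3519 and 3658 bp in fx/fx and 3381, 3046, 3449 and 3650 bp in null.

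Ndn and Magel2, related MAGE family genes, were seen in the same 4 libraries, replicate 1 of 4_1, replicate 1 of 6_1, replicate 1 of 4_C2 and replicate 2 of 6_C4. In that order the peaks measured 1043, 870, 964 and 1144 bp at Ndn and 1394, 1545, 1060 and 1104 bp at Magel2, with 0 bp elsewhere. Both genotypes and both pairs thus had 2 libraries with and 2 without these peaks. Mkrn3, a ring finger gene that acts on the timing of puberty, covered 1308, 1292, 1143 and 936 bp in fx/fx and 1230, 809, 888 and 849 bp in null, with overlapping ranges. Peg12 covered 1592, 1563, 1002 and 1310 bp in fx/fx and 1378, 0, 1273 and 1433 bp in null, lacking a peak only in replicate 2 of 4_C2.

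Of the paternally expressed domains on chromosomes 6 and 7, that of Peg3, a zinc finger gene, and Usp29 holds 1 merged region. Usp29 is read in the opposite direction and shares its end peaks with Peg3. They covered 1388, 3133, 5557 and 5335 bp in fx/fx and 3181, 1811, 3998 and 3941 bp in null. The region held 2 peaks in each 4_1 library. In replicate 1 of 4_1 it was covered over 2401 bp, the length used in the fit of region widths. All 4 libraries of pair 6 were wider than all 4 of pair 4, and the genotypes overlapped. Peg10, a retrotransposon-derived placental gene, and Sgce, a sarcoglycan gene, also share 1 peak, which covered 1152, 0, 2541 and 2673 bp in fx/fx and 1765, 1365, 2447 and 2324 bp in null. It was missing in replicate 2 of 4_1 alone. Asb4, in the same domain, had no end peak.

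Mest, which encodes a hydrolase-like protein of mesoderm, had an end peak only in replicate 1 of 6_1 (903 bp). At its internal start, 30738050, peaks covered 2079, 1637, 3071 and 3877 bp in fx/fx and 1369, 0, 3401 and 4197 bp in null. Only replicate 2 of 4_C2 lacked that peak, and the libraries of pair 6 were again the wider. Copg2, a coat protein gene next to Mest, covered 2072, 1478, 1730 and 2193 bp in fx/fx and 1887, 1418, 1953 and 2080 bp in null, with overlapping ranges.

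Dlk1, the paternally expressed growth factor-like gene of chromosome 12, covered 1239, 973, 1258 and 1190 bp in fx/fx and 1106, 0, 1089 and 1138 bp in null. Plagl1, a zinc finger growth regulator, covered 1362, 1203, 1376 and 1877 bp in fx/fx and 1238, 0, 1438 and 1658 bp in null. Like Peg12, both lacked a peak only in replicate 2 of 4_C2, and without that library 17 of the 36 genes had an end peak throughout. Rtl1, a placental gene of the Dlk1 domain, had none. Of the maternal noncoding RNAs there, Meg3 and Rian had no end peak, and Mirg had one of 855 and 751 bp in the 6_C4 libraries alone.

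Gnas, which encodes the stimulatory G protein subunit and has several imprinted promoters, had end peaks of 1221, 1086, 2927 and 2087 bp in fx/fx, 0 and 0 bp in 4_C2, and 2561 and 1546 bp in 6_C4. The 4_C2 libraries alone lacked it, and in pair 6 the genotype ranges overlapped. At the Gnas start site 174330006, peaks covered 5642, 2671, 5567 and 5169 bp in fx/fx and 5359, 2569, 5026 and 5274 bp in null, so that start was covered in all 8 libraries and its ranges overlapped.

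Nnat, a small membrane proteolipid gene of neurons that lies within Blcap, covered 1407, 1133, 2907 and 1433 bp in fx/fx and 1407, 1232, 1299 and 1152 bp in null. Replicate 1 of 6_1 was the highest through an added peak at the far end of the gene. Blcap covered 3056, 2907, 3288 and 3728 bp in fx/fx and 2993, 2816, 4235 and 3662 bp in null. Zrsr1, a splicing factor gene inside an intron of Commd1, covered 4626, 5018, 6316 and 6609 bp in fx/fx and 6441, 4727, 5633 and 5181 bp in null. Commd1 had no end peak, but its start at 22982284 had one in all 8 libraries, of 2551 to 3208 bp in fx/fx and 2825 to 3450 bp in null. Impact, a regulator of translation, covered 2272, 2001, 2330 and 2193 bp in fx/fx and 2360, 1629, 2377 and 2680 bp in null. Slc38a4, an amino acid transporter, covered 2181, 1477, 2445 and 2336 bp in fx/fx and 2103, 1978, 2401 and 2072 bp in null. For each of these genes the genotype ranges overlapped. Dcn, a proteoglycan gene, had no end peak and none in its body.

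The gene ends thus missed starts inside genes. Of the 28 genes with a start site listed by RefSeq, 25 had a peak within 1000 bp of a start in some library, against 62.7% of coding genes with a listed start. Of the genes just outside the 1000 bp rule, the nearest peak lay 1288 bp from an end for Commd1, 1489 bp for Ddc, 2143 bp for Slc22a18, 2373 bp for Igf2 and 2589 bp for Asb4. Just inside it, the least part of the end windows covered was 411 bases for Cdkn1c, 451 for Dlk1 and 460 for Usp29.

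The widths of regions present in all lists were compared by limma over 10171 merged regions, on the log2 scale after centring on each library's median. Before centring, the library medians over these regions differed by -0.14 between the genotype means, null minus fx/fx. Of these regions 0% were called narrower and 0% wider in null at an adjusted p of 0.05, with 327 and 378 below an unadjusted p of 0.05. The 14 imprinted genes in 12 such regions ranged from -0.19 ± 0.15 for Peg3 and Usp29 to 0.18 ± 0.12 for Slc38a4 (SE), with a median of 0.03 and 5 of 14 below 0. All 10147 coding genes with such a region had a median of 0.01 and 4742 below 0. Between isolate pairs, 2.52% of regions were called narrower and 4.32% wider in pair 6. Among the imprinted genes Mkrn3 was narrower by that call (-0.53 ± 0.11), and the shared Peg3 and Usp29 region was wider (0.59 ± 0.15). With single libraries left out in turn, the Mkrn3 call held only where the one left out was replicate 1 of 6_1 or replicate 2 of 4_C2, and the Peg3 and Usp29 call only without replicate 1 of 4_C2. Over these fits the estimates ran from -0.62 to -0.45 for Mkrn3 and from 0.47 to 0.73 for Peg3 and Usp29. The Mkrn3 call was also lost without centring (-0.26). The other was also lost with a replicate block (0.59) and where regions missing from up to 4 lists were admitted with a pseudocount (0.50).

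**Figure D3:**
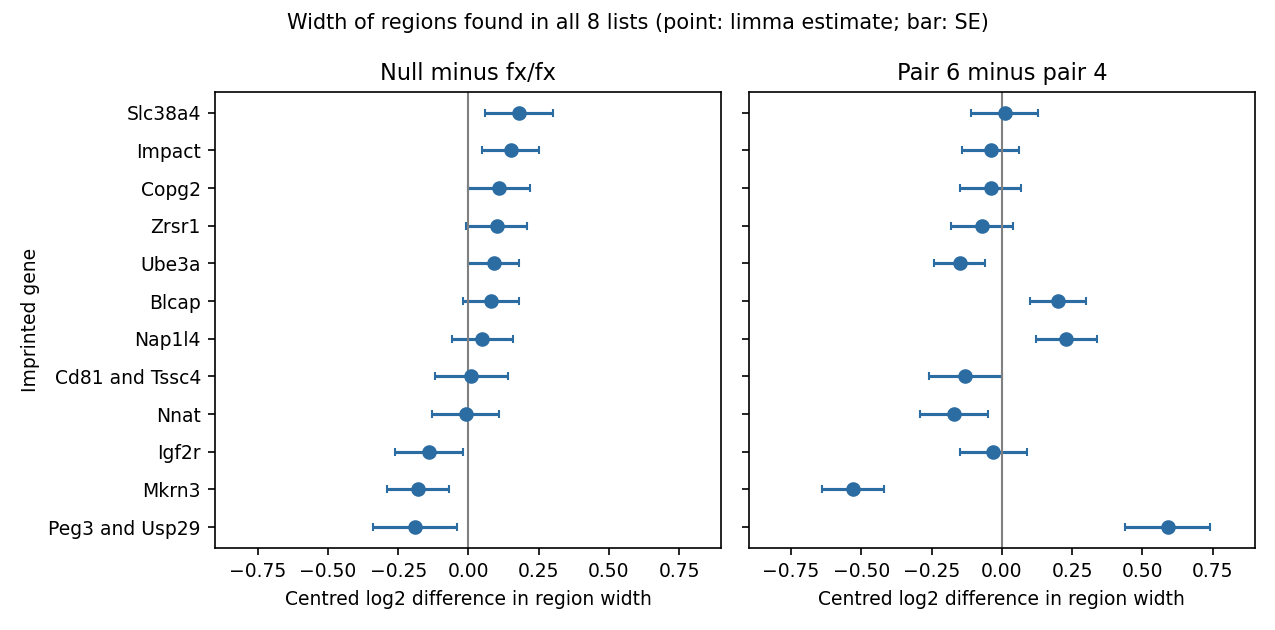
Centred log2 difference in region width (points, limma estimates; bars, SE) for the 12 regions of the 14 imprinted genes found in all 8 lists, null minus fx/fx on the left and pair 6 minus pair 4 on the right. The genotype estimates lie between -0.19 and 0.18, while Mkrn3 at -0.53 and the shared region of Peg3 and Usp29 at 0.59 stand apart between the pairs.

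The sequence of the start sites was not used to choose the genes. The classes of windows compared below rest on peak presence, which was in view at that choice. The values by class are therefore descriptions, here and for the hexamer. Over 45 windows of 28 imprinted genes, the 12 windows with no peak held a median of 4.5 CpG dinucleotides, the 15 with a peak in 1 to 7 libraries 16.0 and the 18 with a peak in all 8 libraries 17.5. Coding gene windows in the same classes had medians of 3.0, 14.0 and 24.0, so in both sets windows without a peak had the lowest median and those with a peak in all libraries the highest. The upstream Grb10 window held 45 CpG dinucleotides and 80.0% G and C, and 2.48% of 21263 coding windows held at least as many CpG dinucleotides. The downstream Grb10 window held 9, and the Snrpn window, although covered in all 8 libraries, held 7.

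The hexamer was found on either strand in 9 of the 45 imprinted windows (20%), against 14.1% of coding windows and 11.6% of all 32851 windows in the table. It contains 1 CpG and no second motif was searched. The upstream Grb10 and the Snrpn windows each held 1, the Mest window held 2, and the downstream Grb10 and the Phlda2 windows held none. Among windows with a peak in all 8 libraries, 22.2% of imprinted and 22.2% of coding windows held it. Among those with a peak in 1 to 7 libraries the shares were 33.3% and 14.8%. None of the 12 imprinted windows without a peak held it, where 3.91% of coding windows without a peak did. The overlapping Mest windows of starts 30738050 and 30738053 both count among the 9. Both also lie among the 5 of 15 imprinted windows behind the 33.3%. Windows that start within 300 bases of each other share sequence, and a match of letters is not a binding site.

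**Figure D4:**
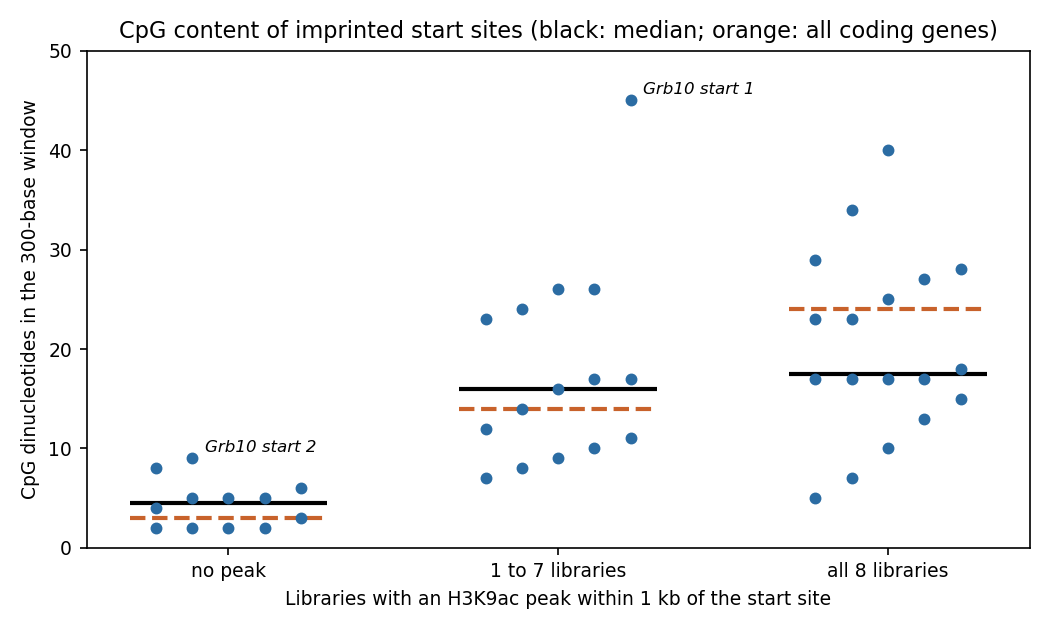
CpG dinucleotides in each 300-base promoter window of the imprinted genes (points), by the number of libraries with a peak within 1 kb of the start site, with the median of the imprinted windows (black line) and of all coding windows (dashed orange line). Windows without a peak hold at most 9, and the upstream Grb10 window, with 45, holds the most of the 45 windows.

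Related lists are given for comparison as counts. Of 41 other imprinted coding genes, 26 had an end peak in at least 1 library and 12 in all 8, and 0 had one in all fx/fx and no null libraries. Calcr, in this list, had one in all 4 libraries of pair 6 and in none of pair 4, as did 1.01% of all genes with an end peak. Dio3, a deiodinase gene of the Dlk1 domain, had 1374, 0, 2077 and 1951 bp in fx/fx and 0, 0, 1832 and 1602 bp in null. Of 11 imprinted noncoding genes in the gene table, 5 had an end peak in some library and 3 in all 8. Peg13, a noncoding gene of chromosome 15, had 0, 0, 2027 and 1952 bp in fx/fx and 2222, 1246, 1811 and 0 bp in null. Of 20 genes for imprint maintenance and DNA methylation, 18 had an end peak somewhere and 15 in all 8 libraries. Zfp57, named here for the hexamer, was among the 15, with 1568 to 2956 bp in fx/fx and 1351 to 2056 bp in null. Dppa3 and Dnmt3l, which protect and help establish the DNA methylation of the egg, had peaks in all 4 libraries of pair 6 and in none of pair 4. That pattern was seen in 1.01% of all genes with an end peak. Zfp42 had an end peak in the 4 libraries of pair 6 and in replicate 1 of 4_1.

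Of 29 insulin and IGF signalling genes, 27 had an end peak in some library, 23 in all 8 and 0 in fx/fx alone. Irs1, an insulin receptor substrate, covered 2903, 2552, 2739 and 2511 bp in fx/fx and 2055, 0, 2173 and 2363 bp in null. Grb14, an adaptor related to Grb10, covered 1356, 1468, 1567 and 1827 bp in fx/fx and 1173, 0, 1350 and 1089 bp in null. Rptor, the mTOR partner, covered 2751, 2841, 2679 and 2693 bp in fx/fx and 2430, 2501, 2632 and 2327 bp in null, and was named after its values were seen. For these 3 of the 27 genes every null library lay below every fx/fx library, against 2.09% of all genes with an end peak, and for 0 of the other imprinted coding genes. The null libraries had the peak in 3 of 4 for Irs1 and Grb14 and in 4 of 4 for Rptor. These lengths are not centred. After centring, the Rptor region differed by -0.01 ± 0.09 (SE; adjusted p = 0.981, limma), null minus fx/fx. The Irs1 and Grb14 regions were not in all 8 lists and had no such estimate. None of the tested regions of these lists was called between genotypes, with 12 regions of the other imprinted coding genes, 15 of imprint maintenance and 24 of insulin and IGF signalling. Between isolate pairs 2 of them were called by limma, where 2.52% of all regions were called narrower and 4.32% wider in pair 6. These 2 calls were not followed under the alternative settings. Tet1, a methylcytosine dioxygenase, was wider in pair 6 (1.19 ± 0.13, SE; adjusted p = 0.00174), and Igfbp4, an IGF binding protein, was narrower (-0.56 ± 0.10, SE; adjusted p = 0.0137).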

How the data were processed

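H3K9ac was mapped in 8 libraries of day 5 embryoid bodies. The authors deposited a peak list per library, whose values are positions only (chromosome, start and end). Per the submitters' processing notes, Bowtie 1.1.2, MACS 1.4.2 and mm10 were used. Threshold, control and filters of peak calling were not given in the sources used here, and deeper sequencing can add and widen peaks. Nothing says that replicates came from separate cultures, so p-values measure the spread between these libraries.

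Gene spans came from the RefSeq table of GRCm38.p6, the assembly that mm10 represents, which gives no exons, introns or untranslated regions. Start sites and strands came from the RefSeq promoter table, which held 28 of the 36 genes. Coordinates count from 1. Overlapping peaks (1 bp or more) formed 26034 merged regions, of which 10171 were in all 8 lists. Region width (log2 covered bp, centred on each library's median) was fitted for genotype and isolate pair with limma 3.58.1 in R 4.3.3, with Benjamini-Hochberg adjustment over all regions at 0.05, after a trial on simulated data. Counts and figures used numpy 2.4.6, pandas 2.3.3, matplotlib 3.10.9 and SciPy 1.17.1 under Python 3.11.15.

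The genes and lists were chosen with earlier results of these data known. Values in all 8 libraries were given for imprinted genes with an end peak in 1 to 7 libraries and for up to 4 per domain with one in all 8, by width change. Genes without one were named only, with some of the peaks elsewhere in them described. Up to 4 genes per other list were named by difference in presence between genotypes, then pairs, then by width, and ties were not all named. Alternatives were other windows and overlaps, start sites only, lists of equal length, other merging, centring, filters and model terms, and leaving out each library.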

Additional observations from a re-analysis of the deposited data

Results flagged for a closer look

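In groups of 4 libraries, a library was singled out where its gap to the nearest other took up more of the group's range than Dixon's critical value allows. Of 54 groups 8 met this. Chance gives about 1 in 20 for values that vary continuously, but these values also chose the genes, and in 5 of the 8 groups the other 3 libraries were all at 0, which meets the criterion by construction. The 8 are therefore listed as values only. Within fx/fx, replicate 1 of 6_1 stood apart at Nnat (2907 bp), Mest (903 bp) and Ascl2 (1265 bp) by being high. Within null, replicate 1 of 4_C2 stood apart at Kcnq1 (1086 bp), Cdkn1c (2097 bp) and Phlda2 (1558 bp), where the other 3 null libraries had no peak. Replicate 2 of 4_C2 stood apart at Peg12 (0 bp) and Dlk1 (0 bp), where the other 3 had one. The covered length of the peak shared by Peg10 and Sgce moved in opposite directions in the isolate pairs, by 989 bp in pair 4 and -222 bp in pair 6, null minus fx/fx, and this difference was not tested.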

How the results depend on the processing

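With lists of equal length, no imprinted gene (0) was seen in all fx/fx and no null libraries, 1 gene in the table had the opposite pattern, and 42 and 79 genes were seen only in pair 6 and only in pair 4. Pair 6 was then narrower at 170 regions and wider at 323. At listed start sites alone, 89 and 2 genes were seen only in pair 6 and only in pair 4. When regions missing from up to 4 lists were admitted with a pseudocount of 100 bp, 17 regions were narrower in null, and 408 were narrower and 1020 wider in pair 6. Without centring, 22 were narrower and 2724 wider in pair 6. Leaving out each library in turn gave 1 to 2 imprinted genes seen only in fx/fx, 14 to 17 seen in every library, 27 to 28 in any and 16 to 25 lower in null. The 2 genes, Grb10 and Phlda2, came without replicate 1 of 4_C2, and the 17 without replicate 2 of 4_C2. Over all genes the ranges were 10 to 38 seen only in fx/fx (38 without replicate 1 of 6_C4), 0 to 6 only in null (6 without replicate 2 of 4_C2), 145 to 313 only in pair 6 (313 without replicate 1 of 4_1) and 5 to 8 only in pair 4. By limma, 0 to 1 regions were narrower and 0 wider in null, and 47 to 127 were narrower and 246 to 380 wider in pair 6, the lowest of both without replicate 1 of 6_C4. The cause of these shifts was not tested. For single imprinted genes, the difference in covered length took the opposite sign in 33 of 358 alternative values, over 15 of 28 genes, and 2 values moved by more than the spread between libraries. Genotype width estimates, none of them called, took the opposite sign in 21 of 194. Pair width estimates did so in 18 of 194, where 25 lost a call and 2 gained one.

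With replicate number as a replicate block, limma called 0 regions narrower and 0 wider in null, and 199 narrower and 430 wider in pair 6. Deviations of same-numbered libraries correlated at 0.11 between 4_1 and 4_C2 and at 0.06 between 6_1 and 6_C4, and at -0.03 to 0.03 between the other clones, so the numbers were not taken to pair the libraries. Peak lists carry no depth, so a missing peak may lie under the calling threshold.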
